A study of Homo sapiens with 13 samples.

Results

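The genes described here belong to the NRF2 pathway, the main antioxidant response of human cells, in H1975 lung adenocarcinoma cells kept in starvation medium. The 9 members are NFE2L2, which encodes the factor NRF2, its inhibitor KEAP1, and the target genes NQO1, HMOX1, GCLC, GCLM, TXNRD1, SRXN1 and AKR1C1. A member was followed where the platform annotation gave its symbol to a probeset, a set of array probes read as 1 feature. This held for 5 of the 9, namely NFE2L2, KEAP1, HMOX1, TXNRD1 and SRXN1, each with 1 probeset, and all 5 passed the filter on dim features, among 12976 tested features of 12375 gene symbols. NQO1, GCLC, GCLM and AKR1C1 had no named feature and were not analysed here.

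In unstressed cells KEAP1 holds NRF2 in the cytoplasm and hands it to a CUL3 ubiquitin ligase for degradation. Oxidants and electrophiles modify cysteines of KEAP1, NRF2 then accumulates, pairs with a small MAF protein and binds antioxidant response elements of genes for glutathione synthesis, thioredoxin reduction, heme breakdown and detoxification. In lung adenocarcinoma the pathway is known for mutations of KEAP1 and NFE2L2 that leave NRF2 active. Since NRF2 is largely set by protein turnover, the RNA of NFE2L2 is not a measure of its activity, and the RNA of its targets is the usual readout.

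Total RNA was hybridised to Affymetrix Human Gene 2.0 ST GeneChips over a time course in medium without fetal calf serum and without EGF, in a study of how gene expression follows EGF stimulation. The cells had been starved overnight before 0 h, so starvation is common to all groups and 0 h is not a fed state. There were 13 arrays, with 3 at 48 h, 2 at 24 h, 1 each at 0.5, 1, 2, 4 and 6 h, and 3 at 0 h. H1975 is an established line, and nothing in the labels says that replicates are separate cultures, so p-values measure the spread between these arrays, which may be technical.

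The values are SCAN scores, in which each array is standardised on its own and background lies near 0. A difference of scores is given in SCAN units and is not a log2 fold change, and the score of 1 gene cannot be set against that of another. The medians of the 13 arrays lay between 0.0621 and 0.0798. An array called replicate 1 at 0 h stood apart: it correlated at 0.981 and 0.982 with the other 0 h arrays, which correlated at 0.996 with each other. On 39.1% of tested features this array and the 2 h array lay together outside the range of the 6 other arrays up to 6 h. The differences of the members and the counts of calls are therefore also given without these 2 arrays. For the tests between times this equals leaving out the 0 h replicate 1 alone, since the 2 h array is the only array of its time. Of the epithelial markers, EPCAM, KRT7, KRT8, KRT18, KRT19 and CLDN4 were tested and scored from 0.684 to 3.00 on every array, and the fibroblast genes DCN and LUM, the leukocyte genes LYZ and CD14 and the endothelial gene VWF scored between -0.149 and 0.156. CD68, a lysosomal protein of macrophages that other cells also make, scored from 2.32 to 2.65, and KDR, an endothelial receptor, from 0.281 to 0.943. CDH5, another endothelial gene, whose feature was named through the study's result table, scored from 0.0600 to 0.419. In limma KDR rose by 0.527 at 48 h (adjusted p = 5.85e-05) and CDH5 differed by -0.164 (adjusted p = 0.00746). Their part in the results below was not tested.

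To show what the proximal promoters of these genes look like, windows from 250 bases before to 50 bases after the start of transcription were taken from RefSeq (GRCh38.p14). Of the 5 members with values, 4 had a window, 7 windows in all. They were searched on both strands for TGACNNNGC and TGAGNNNGC, the core of the antioxidant response element, which can overlap an AP1 site (TGACTCA or TGAGTCA). Of all 35116 windows of this length, 13.3% held TGACNNNGC, 18.3% held TGAGNNNGC and 29.1% held either. Shown are the windows of NFE2L2 and TXNRD1, the members that passed the test at 48 h, that of KEAP1, the inhibitor, and that of SRXN1, the member with the smallest difference at 48 h, with matches in capitals.
NFE2L2, chr2:177264082-177264381, minus strand: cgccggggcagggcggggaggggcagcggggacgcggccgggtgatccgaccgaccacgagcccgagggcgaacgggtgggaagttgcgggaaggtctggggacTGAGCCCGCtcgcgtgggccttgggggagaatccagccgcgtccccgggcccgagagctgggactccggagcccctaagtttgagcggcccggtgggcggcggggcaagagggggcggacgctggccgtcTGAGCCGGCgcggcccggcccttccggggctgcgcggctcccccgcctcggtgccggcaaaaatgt
KEAP1, chr19:10502722-10503021, minus strand: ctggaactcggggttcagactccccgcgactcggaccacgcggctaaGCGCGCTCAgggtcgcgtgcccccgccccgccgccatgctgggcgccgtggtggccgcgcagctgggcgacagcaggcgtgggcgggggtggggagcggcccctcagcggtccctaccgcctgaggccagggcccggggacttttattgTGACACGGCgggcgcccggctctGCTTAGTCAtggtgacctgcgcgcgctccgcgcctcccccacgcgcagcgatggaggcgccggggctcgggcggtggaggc
TXNRD1, chr12:104215529-104215828, plus strand: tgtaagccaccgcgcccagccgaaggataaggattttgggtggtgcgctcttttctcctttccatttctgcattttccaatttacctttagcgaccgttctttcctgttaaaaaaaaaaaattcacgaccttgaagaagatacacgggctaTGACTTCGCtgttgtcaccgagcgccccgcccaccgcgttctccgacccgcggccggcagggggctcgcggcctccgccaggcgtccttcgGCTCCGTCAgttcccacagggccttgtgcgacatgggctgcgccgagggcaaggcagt
TXNRD1, chr12:104286782-104287081, plus strand: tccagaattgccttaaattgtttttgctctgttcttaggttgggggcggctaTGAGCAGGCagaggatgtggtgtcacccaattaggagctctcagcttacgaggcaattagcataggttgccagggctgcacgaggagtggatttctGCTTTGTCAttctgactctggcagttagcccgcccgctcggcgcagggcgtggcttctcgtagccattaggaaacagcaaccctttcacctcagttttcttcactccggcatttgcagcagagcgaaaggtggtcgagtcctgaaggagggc
SRXN1, chr20:653151-653450, minus strand: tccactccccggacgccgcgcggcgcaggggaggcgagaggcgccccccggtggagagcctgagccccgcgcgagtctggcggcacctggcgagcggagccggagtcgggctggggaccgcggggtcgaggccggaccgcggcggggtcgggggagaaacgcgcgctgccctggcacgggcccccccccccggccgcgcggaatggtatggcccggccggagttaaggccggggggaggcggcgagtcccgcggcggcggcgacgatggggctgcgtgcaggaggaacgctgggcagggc
The NFE2L2 window held 2 matches, TGAGCCCGC and TGAGCCGGC, at positions -146 to -138 and -16 to -8 from the start. The KEAP1 window held 3 matches, 1 on the plus strand of the gene (TGACACGGC, positions -54 to -46 from the start) and 2 read on the opposite strand. Each TXNRD1 window held 2 matches. Those in the upstream window read TGACTTCGC at positions -99 to -91 and, on the opposite strand, TGACGGAGC at -8 to 1. Those in the other window read TGAGCAGGC at -198 to -190 and, on the opposite strand, TGACAAAGC at -102 to -94. The SRXN1 window, a second NFE2L2 window (chr2:177264678-177264977) and a second KEAP1 window (chr19:10503307-10503606) held no match. None of the 9 matches held an AP1 site. A match is a run of letters and was not tested as a binding site.

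NFE2L2, the factor itself, rose. It scored 1.74, 1.77 and 1.73 on the 48 h arrays, against 1.65, 1.58 and 1.63 on the 0 h arrays. The lowest 48 h array lay above the highest 0 h array. RNA of whole cultures was measured, so a change in the share of cells that make an RNA and a change in RNA per cell cannot be told apart, here and below. The difference of 48 h minus 0 h was 0.129 SCAN units (SE 0.0334, 95% interval 0.0543 to 0.203), with an adjusted p of 0.0218 in limma over all tested features. Without the 2 arrays that stood apart it was 0.142, with an adjusted p of 0.00527. Between these ends NFE2L2 scored 1.64 at 0.5 h, 1.55 at 1 h, 1.67 at 2 h, 1.68 at 4 h and 1.67 at 6 h, and 1.71 and 1.68 on the 24 h arrays. The lowest array of the whole course was that of 1 h, and the 4 highest were those of 48 h and the 24 h replicate 1. The 24 h arrays lay above every 0 h array, but the difference of 0.0758 did not pass (adjusted p = 0.284), and neither did that of 48 h minus 24 h (0.0528, adjusted p = 0.615).

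KEAP1, the inhibitor, scored 1.50, 1.48 and 1.50 on the 48 h arrays, against 1.54, 1.62 and 1.61 on the 0 h arrays. The groups did not overlap, with every 48 h array below every 0 h array. The difference was -0.0975 (SE 0.0337, 95% interval -0.172 to -0.0226) and did not pass over all 13 arrays (adjusted p = 0.0710). It passed without the 2 arrays, at -0.121 (adjusted p = 0.0104), which is the same test as without the 0 h replicate 1 alone. On the 24 h arrays KEAP1 scored 1.51 and 1.48, with a difference from 0 h of -0.0978 (adjusted p = 0.164), which also passed without the 2 arrays (-0.121, adjusted p = 0.0277). The level of 48 h minus that of 24 h was 0.000271, with a 95% interval from -0.0834 to 0.0840. Earlier, KEAP1 scored 1.70 at 0.5 h, 1.68 at 1 h, 1.38 at 2 h, 1.56 at 4 h and 1.49 at 6 h. Its highest scores were those of the 0.5 h and 1 h arrays, whose mean lay 0.101 above 0 h (unadjusted p = 0.0230, adjusted p = 0.507 in limma; 0.0774 without the 2 arrays, adjusted p = 0.287). Its lowest score was that of the 2 h array, 1 of the 2 arrays that stood apart.

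**Figure D1:**
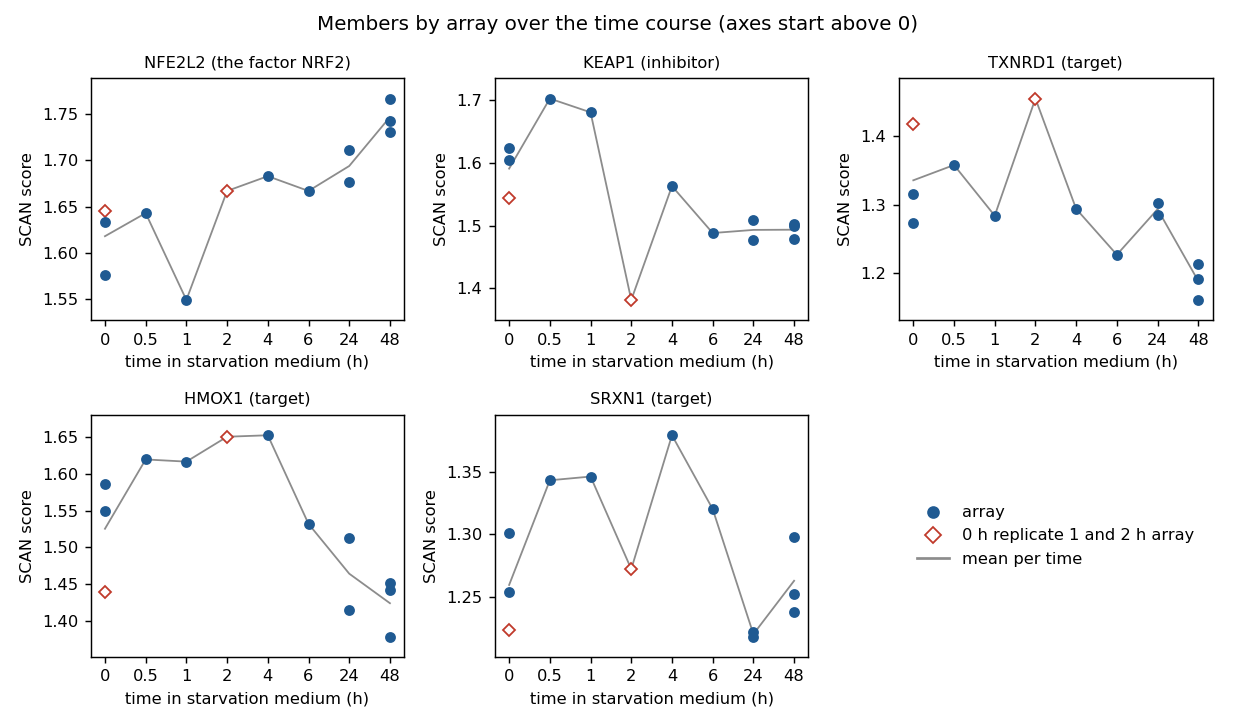
SCAN score (y, not starting at 0) of the 5 members on each array against time in starvation medium (x, hours, evenly spaced); lines join the means per time, and open diamonds are the 0 h replicate 1 and the 2 h array. NFE2L2 reaches 1.73 to 1.77 at 48 h, above all 0 h arrays, and TXNRD1 lies at 1.16 to 1.21, below all of them.

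TXNRD1, the cytosolic thioredoxin reductase that uses NADPH to keep thioredoxin reduced, fell. It scored 1.16, 1.19 and 1.21 on the 48 h arrays, against 1.42, 1.27 and 1.31 on the 0 h arrays. The 3 arrays of 48 h were also the lowest of the whole course. The difference was -0.147 (SE 0.0409, 95% interval -0.238 to -0.0558), with an adjusted p of 0.0296 in limma. Over all 13 arrays it was the largest absolute difference of the 5 members, whereas NFE2L2 exceeded it after quantile normalisation, and HMOX1, NFE2L2 and KEAP1 did without the 2 arrays. The 0 h replicate 1 and the 2 h array (1.46) were its 2 highest arrays, both above the 1.23 to 1.36 of the 6 other arrays up to 6 h. Without them the difference was -0.106 and still passed (adjusted p = 0.0273). The other times gave 1.36 at 0.5 h, 1.28 at 1 h, 1.29 at 4 h, 1.23 at 6 h, and 1.28 and 1.30 on the 24 h arrays. The 24 h arrays overlapped those of 0 h (difference -0.0423, adjusted p = 0.680, and -0.00112 without the 2 arrays). The difference of 48 h minus 24 h was -0.105 (unadjusted p = 0.0450, adjusted p = 0.346).

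HMOX1, heme oxygenase, which breaks heme down to biliverdin, iron and carbon monoxide, scored 1.38, 1.44 and 1.45 on the 48 h arrays, against 1.44, 1.59 and 1.55 on the 0 h arrays. The groups overlapped through the 0 h replicate 1, which lay below 2 of the 48 h arrays. The difference was -0.102 (SE 0.0463, 95% interval -0.205 to 0.00132; adjusted p = 0.166). Without the 2 arrays it passed at -0.145 (adjusted p = 0.0106). HMOX1 scored 1.62 at 0.5 h, 1.62 at 1 h, 1.65 at 2 h and 1.65 at 4 h, each above all 0 h arrays, then 1.53 at 6 h, and 1.51 and 1.42 on the 24 h arrays. The difference of the 0.5 h and 1 h mean from 0 h was 0.0937 (adjusted p = 0.613), and 0.0504 when the 0 h replicate 1 was left out. All 3 arrays of 48 h lay below each array from 0.5 h to 6 h.

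SRXN1, sulfiredoxin, which repairs overoxidised peroxiredoxins, scored 1.25, 1.30 and 1.24 on the 48 h arrays, against 1.22, 1.30 and 1.25 on the 0 h arrays. The ranges overlapped almost entirely. The difference was 0.00327, with a 95% interval from -0.0732 to 0.0797 (adjusted p = 0.966), and -0.0149 without the 2 arrays. In between it scored 1.34 at 0.5 h, 1.35 at 1 h, 1.27 at 2 h, 1.38 at 4 h and 1.32 at 6 h, and 1.22 on both 24 h arrays. The arrays of 0.5, 1, 4 and 6 h lay above all 0 h and all 48 h arrays, while those of 24 h were the lowest of the course. The mean of 4 h and 6 h minus 0 h was 0.0902 (unadjusted p = 0.0404, adjusted p = 0.963; 0.0721 without the 2 arrays, adjusted p = 0.434).

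Of the 5 members, 2 passed the test at 48 h over all arrays, 1 higher and 1 lower, beside 19.5% of all tested features (9.86% higher and 9.68% lower). Leaving out the 2 arrays, 4 passed, 1 higher and 3 lower, beside 27.4% of all features (14.8% higher and 12.7% lower). The median difference of the members was -0.0975, against -0.00155 over all tested features. By array, 1 member had all 48 h arrays above every 0 h array and 2 had all below, where 17.9% and 17.5% of tested features did. Both calls were lost in limma when any of the 48 h replicates was left out. Adjusted p was then 0.0582 to 0.0876 for NFE2L2 and 0.0676 to 0.119 for TXNRD1. Fewer of all 12976 features were called in these fits as well. They had 825 to 868 features higher and 795 to 889 lower, against 1280 and 1256 over all arrays. NFE2L2 was also lost without the 0 h replicate 2 (adjusted p = 0.0675), and TXNRD1 without the 0 h replicate 3 (0.0506) or either 24 h array (0.0519).

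**Figure D2:**
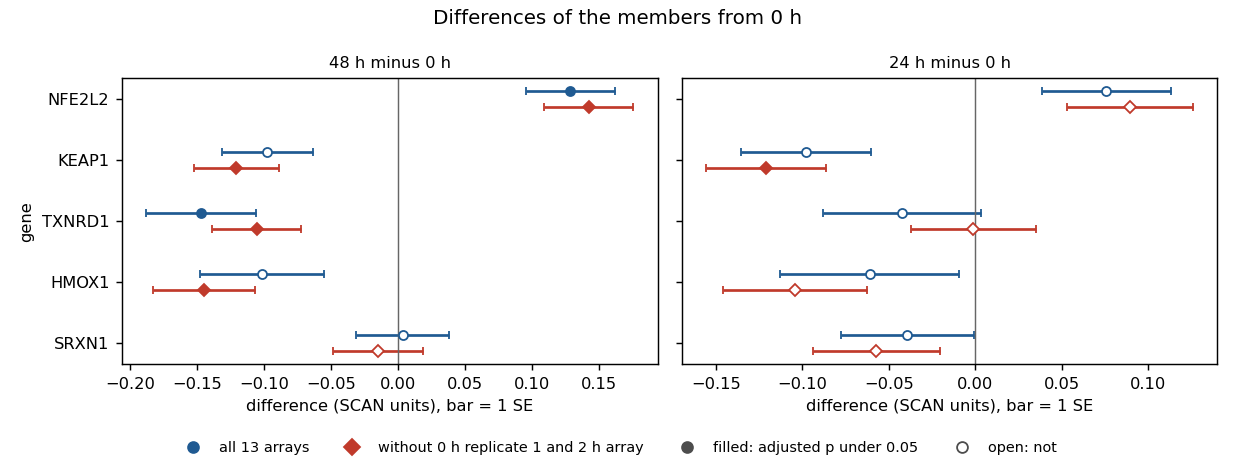
Difference from 0 h (x, SCAN units, bars 1 SE) of each member at 48 h (left) and 24 h (right), over all 13 arrays (circles) and without the 0 h replicate 1 and the 2 h array (diamonds); filled symbols have an adjusted p under 0.05. At 48 h NFE2L2 and TXNRD1 are filled in both settings, KEAP1 and HMOX1 only without the 2 arrays, and at 24 h only KEAP1 is filled, without them.

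At 24 h none of the 5 members passed in limma (1 at an unadjusted p under 0.05, KEAP1), beside 7.69% of tested features (5.33% higher and 2.37% lower). Without the 2 arrays KEAP1 passed, beside 17.6% (12.8% higher and 4.72% lower). The split of the 24 h calls over all features depended on the scaling, with 691 higher and 307 lower as deposited, 446 and 420 after quantile normalisation and 324 and 612 after median centring, and no member passed under any of these. By array, NFE2L2 lay above and KEAP1 and SRXN1 below 0 h on both 24 h arrays, where 23.4% of tested features lay above and 11.9% below. Between 48 h and 24 h none passed (1 at an unadjusted p under 0.05, TXNRD1), beside 2.84% of features, nor did any without the 2 arrays, beside 10.3%. The early pair of arrays (0.5 h with 1 h) and the middle pair (4 h with 6 h) gave no call for a member (1 each at an unadjusted p under 0.05, KEAP1 and SRXN1), and 0.0% of all features were called in either comparison. Again no member passed without the 2 arrays, beside 0.2% and 0.185% of features. The median difference of the members was 0.0851 for the early and 0.0571 for the middle pair, against 0.0209 and 0.0112 over all features. These medians were 0.0504 and 0.0243 without the 2 arrays, nearer to the 0.0314 and 0.0182 over all features. These 2 comparisons share their 0 h arrays with each other and with 24 h and 48 h. At single arrays the spread between replicates is not known.

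The largest distance of any later time from the 0 h mean was also set against a noise threshold built after that of the study, which doubles an upper quantile of the replicate SD of features of like level. The study applies its threshold to the distance between stimulated and control arrays and asks for more replicated times than the 0, 24 and 48 h available here, so the values are a description. No member went past it, beside 13.5% of tested features, and none did without the 2 arrays, beside 19.5%. KEAP1 came closest, with -0.210 against a threshold of 0.239, but this distance was that of the 2 h array. HMOX1 (-0.145) and NFE2L2 (0.142), both at 48 h, came closest to a threshold of 0.163 without the 2 arrays. Over all arrays TXNRD1 lay farthest at 48 h, with -0.147 against 0.239, as did NFE2L2, with 0.129 against 0.239. HMOX1 and SRXN1 lay farthest on the 4 h array, at 0.128 and 0.120.

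Across the 13 arrays the scores of NFE2L2 and KEAP1 ran against each other (Pearson's r = -0.648, and -0.785 over the 11 arrays without the 2), as did NFE2L2 and HMOX1 (-0.586 and -0.695). HMOX1 and SRXN1 ran together (0.699 and 0.766). KEAP1 and TXNRD1 had an r of 0.0177 over 13 arrays and 0.660 over 11, so this value rested on the 2 arrays. These are descriptions over arrays that share time points and scaling. The features most like NFE2L2 over the 13 arrays were those of SP110 (r = 0.939), ARHGAP21 (0.921) and SEL1L3 (0.905). Those most like TXNRD1 were SNORA55 (0.963), MSI2 (0.948) and C1GALT1C1 (0.948), each lower over 11 arrays (0.874 to 0.924).

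Around the members, 152 other genes of the pathway were listed by role in 10 lists, of which 95 genes in 9 lists were tested. At 48 h 12 of the 95 were higher and 7 lower, or 20.0% called beside 19.5% of all tested features. Their median difference was -0.00990, against -0.00155 over all features. Leaving out the 2 arrays, 16 were higher and 11 lower, or 28.4% beside 27.4%, and 18 of the 19 calls, all but that of CAND1, were among them in the same direction. The 16 include LHX8, which lay near background and passed the filter on dim features only through a 48 h array. Pathway genes were therefore called about as often as any feature, and the values below describe which of them moved.

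Among the partners and regulators of NRF2, 4 of 13 tested genes rose, 1 fell and 8 did not pass. NFE2L3, a factor of the same cap'n'collar family, scored 1.22, 1.18 and 1.25 on the 48 h arrays, against 0.913, 0.880 and 0.897 on the 0 h arrays. These groups lay far apart (difference 0.319, SE 0.0336, adjusted p = 9.16e-05), and NFE2L3 also rose between 24 h and 48 h (0.199, adjusted p = 0.0191). NFE2L1, a membrane-bound relative that drives proteasome genes, rose by 0.163 (adjusted p = 0.0151). MAFG, a small MAF partner of all of these factors, rose by 0.162 (adjusted p = 0.0222), and GSK3B, a kinase that marks NRF2 for degradation apart from KEAP1, by 0.160 (adjusted p = 0.00455). CAND1, an exchange factor of cullin ligases, was the gene that fell (-0.150, adjusted p = 0.0484); it was named after its value was seen. CUL3, the scaffold of the KEAP1 ligase, differed by -0.00114 (adjusted p = 0.991). The list's median was 0.0449, and 2 of 13 passed without the 48 h replicate 1 or without the 48 h replicate 2. Of all 12976 features, 868 were higher and 795 lower in the first of these fits, and 834 and 889 in the second. Over the 11 other arrays 5 were higher and 1 lower, with 0.327 for NFE2L3 (adjusted p = 5.11e-06). CAND1 was not called over these arrays, while BTRC and DPP3 were called in addition.

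Among genes of glutathione synthesis, reduction and cystine uptake, 3 of 16 tested genes rose, 5 fell and 8 did not pass, with a median of -0.0302. SLC7A11, the cystine transporter that feeds glutathione synthesis, scored 2.38, 2.38 and 2.39 on the 48 h arrays, against 2.10, 1.91 and 1.90 on the 0 h arrays. No array up to 6 h exceeded 2.10, and the 24 h arrays stood at 2.46 and 2.39. The difference was 0.412 at 48 h (adjusted p = 0.000300) and 0.452 at 24 h (adjusted p = 0.00204). Its feature was named through the study's own result table, which was made from these samples and the EGF arrays, so its place among the named genes is not independent of its values. GLRX, glutaredoxin, which takes glutathione off protein thiols, scored 1.01, 1.03 and 0.974 at 48 h, against 0.815, 0.745 and 0.718 at 0 h (difference 0.242, adjusted p = 0.00105).

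GGCT, which breaks down gamma-glutamyl peptides of the glutathione cycle, fell, with 1.12, 1.22 and 1.17 on the 48 h arrays, against 1.53, 1.45 and 1.39 on the 0 h arrays (difference -0.289, adjusted p = 0.00105). Every 48 h array lay below every other array of the course. The 2 h array was its highest, at 1.67. GPX3, the secreted glutathione peroxidase, scored 0.330, 0.349 and 0.395 at 48 h, against 0.525, 0.616 and 0.574 at 0 h (difference -0.214, adjusted p = 0.00214), and fell also between 24 h and 48 h (-0.175, adjusted p = 0.0491). The other calls, named after their values were seen, were a rise of GGT1 (0.250), again named through the study's table and with near-identical copies in the genome, and falls of GPX8 (-0.162), GLRX3 (-0.145) and GSR, glutathione reductase (-0.115). GSS, glutathione synthetase, differed by -0.0479 (adjusted p = 0.543). Over the 11 other arrays the list again had 3 higher and 5 lower, with 0.476 for SLC7A11, 0.270 for GLRX, -0.250 for GGCT and -0.237 for GPX3. Of the 16, 5 passed without the 48 h replicate 1 and 5 without the 48 h replicate 3. Of all 12976 features, 868 were higher and 795 lower in the first of these fits, and 825 and 796 in the second.

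**Figure D3:**
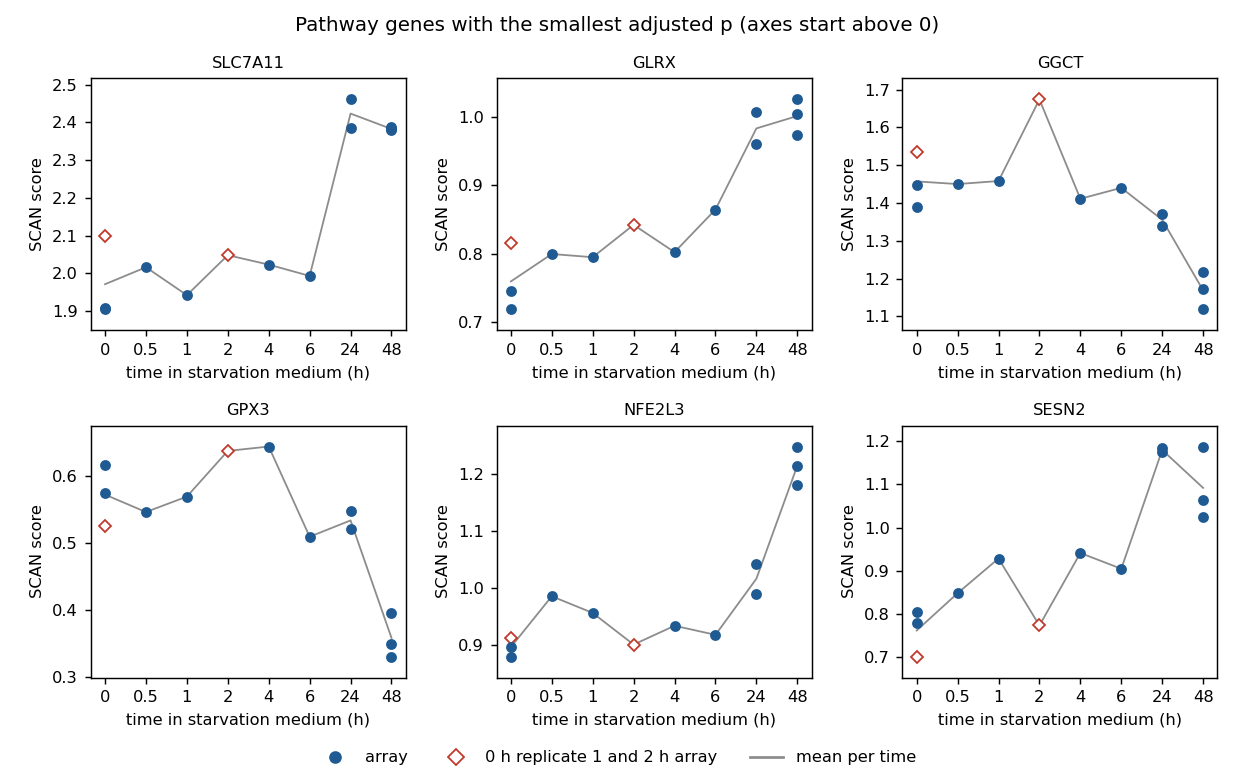
SCAN score (y, not starting at 0) of 6 pathway genes with small adjusted p on each array against time in starvation medium (x, hours, evenly spaced); lines join the means per time, and open diamonds are the 0 h replicate 1 and the 2 h array. SLC7A11 and SESN2 are already high on the 24 h arrays, while NFE2L3 and GPX3 separate from 0 h mainly at 48 h.

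Of the thioredoxins, peroxiredoxins and related genes, 1 of 17 passed. SESN2, a sestrin that restrains mTORC1 when amino acids are short, rose by 0.331 at 48 h (adjusted p = 0.000654) and by 0.420 at 24 h (adjusted p = 0.00181). It scored 1.03, 1.19 and 1.06 on the 48 h arrays and 1.18 on both 24 h arrays, against 0.700, 0.805 and 0.777 on the 0 h arrays. TXN, the substrate of TXNRD1, differed by 0.0828 (adjusted p = 0.270), and PRDX3, a mitochondrial peroxiredoxin, by -0.0590 (adjusted p = 0.218). The median was -0.0403 over all arrays and -0.00423 without the 2, where 3 of 17 passed, 1 higher (SESN2, 0.301) and 2 lower.

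Of the glutathione S-transferases, 2 of 15 rose, 1 fell and 12 did not pass. GSTA4, which conjugates aldehydes of lipid peroxidation, rose by 0.231 (adjusted p = 0.00202), and GSTK1, the mitochondrial and peroxisomal kappa class enzyme, by 0.245 (adjusted p = 0.00982). GSTO1, an omega class enzyme, fell, with 0.702, 0.637 and 0.578 at 48 h, against 0.935, 0.788 and 0.748 at 0 h (difference -0.185, adjusted p = 0.0338). The median of the list was 0.0608 over all arrays and -0.0236 without the 2, so it had no steady direction, while 2 were again higher and 1 lower. Members of this family share sequence, and probes may read close copies.

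Smaller lists had few calls. PON2, an antioxidant lactonase, was the gene of superoxide and peroxide enzymes that rose (1 of 5; 0.145, adjusted p = 0.0195). In a list of other reported targets the single call of 11 genes was DCAF11 (0.136, adjusted p = 0.0293), which is known as a receptor of a CUL4 ligase that degrades NRF2, so no gene known as a target was called there. Of these 11, 3 passed without the 2 arrays, all higher, namely DCAF11, ETFDH and LHX8. LHX8 lay near background, at 0.0389 on the 48 h replicate 1 and below 0 on every other array. It passed the filter on dim features only through that array, which belongs to the group where it was called higher. The PON2 call was lost after quantile normalisation and without the 0 h replicate 2 or 3 or the 48 h replicate 1 or 3, and that of DCAF11 without the 0 h replicate 2 or 3, either 24 h array or the 48 h replicate 2 or 3. None of 8 enzymes of the pentose phosphate path and NADPH supply (PGD, PGLS, TKT, TALDO1, RPIA, RPE, NADK and NNT), 4 enzymes of xenobiotic and carbonyl metabolism and 6 genes of heme and iron handling passed in limma (1 gene each at an unadjusted p under 0.05, namely NNT, CBR1 and FECH). Over the 11 other arrays PGD, which makes NADPH, was lower, and 2 heme genes passed, the heme genes being BLVRA, biliverdin reductase (0.133, adjusted p = 0.00901), and HMOX2, the constitutive heme oxygenase (-0.133, adjusted p = 0.0135). Without the 48 h replicate 3, 1 gene of xenobiotic metabolism passed, beside 825 higher and 796 lower of all 12976 features. No efflux transporter had a named feature.

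**Figure D4:**
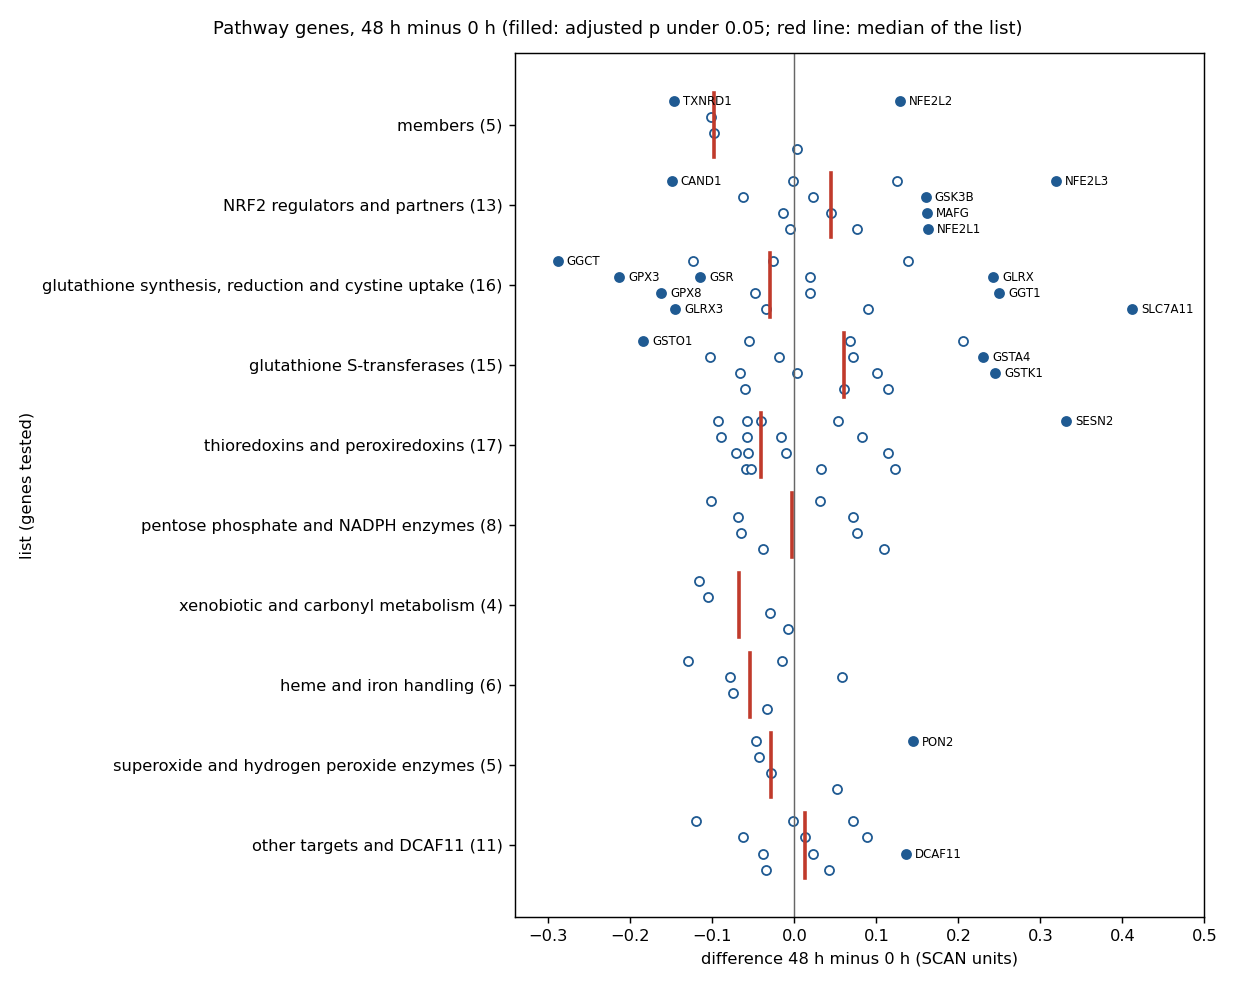
Difference of 48 h minus 0 h (x, SCAN units) of every tested gene by list (y), over all 13 arrays; filled points have an adjusted p under 0.05 and are named, and red lines are list medians. Points lie on both sides of 0 in each list of more than 4 genes, and the list medians range from -0.0975 for the members to 0.0608 for glutathione S-transferases.

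At 24 h 5 of the 95 pathway genes rose and none fell in limma (3 lower at an unadjusted p under 0.05), or 5.26% beside 7.69% of all tested features. They were SLC7A11, SESN2, GLRX (0.225, adjusted p = 0.00984), DCAF11 (0.193, adjusted p = 0.0223) and CCS, the copper chaperone of superoxide dismutase (0.173, adjusted p = 0.0200). Of these, the first 4 also passed at 48 h, while CCS lay 0.0526 above 0 h there (adjusted p = 0.322). Without the 2 arrays 14 rose and 3 fell at 24 h, or 17.9% beside 17.6% of all features. After quantile normalisation or median centring SLC7A11, SESN2 and GLRX passed as rises and DCAF11 and CCS did not, and after median centring CAT, GLRX3 and GSR passed as falls.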

How the data were processed

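RNA of H1975 cells was hybridised to GeneChip Human Gene 2.0 ST arrays, and 13 arrays of the starvation arm were used. Arrays with EGF, and any of 8 or 12 h, were not used here. The authors standardised each array by itself with SCAN, and the deposited values are scores without normalisation between arrays. The study left out arrays after quality control without naming them, so all 13 were kept. Of 39937 features, 15426 were named by the platform annotation, matched by Entrez ID to RefSeq, and 212 by the study's result table. Features below 0 on every array (2662) were left out. Time points were compared by limma (3.58.1, R 4.3.3), with a linear model that has a level for each time (5 residual degrees of freedom), empirical Bayes moderation, two-sided tests, Benjamini-Hochberg adjustment over 12976 features and a threshold of 0.05. The step was tested on simulated data with independent noise and no array that stood apart. That run says nothing of the effect of such arrays on the calls here. The number of arrays limits the precision.

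Named were all members, up to 4 genes per list with the smallest adjusted p at 48 h, and the 3 features most like NFE2L2 and TXNRD1, the members with the largest differences at 48 h over all 13 arrays. Genes outside this rule were named after their values were seen. The members and lists were chosen with earlier results of these data known. Alternatives covered scaling, filters, probesets, the variance model, array weights, a replicate block and arrays left out. Tables were made with Python 3.11.15 and pandas 2.3.3, figures with matplotlib 3.10.9.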

Additional observations from a re-analysis of the deposited data

How the results depend on the processing

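At 48 h the 2 calls of members, a rise of NFE2L2 and a fall of TXNRD1, kept direction and call under quantile normalisation and median centring. They were also kept with both filters, the other variance model and the mean of all probesets. These settings leave the differences of members, each with 1 probeset, unchanged and alter only the variance and the adjustment. A fit on 0, 24 and 48 h alone is the same test as the main fit, since times with 1 array add nothing to the spread. With array weights, and without the 0 h replicate 1 and the 2 h array, 4 members passed at 48 h and 1 at 24 h. The shares of all features were 28.9% and 27.4% at 48 h, and 16.2% and 17.6% at 24 h. With the same 2 settings, 3 and 3 of 17 thioredoxins and peroxiredoxins and 2 and 1 of 8 pentose phosphate and NADPH enzymes passed at 48 h. So did 2 and 2 of 6 genes of heme and iron handling, and 3 and 3 of 11 genes in the list of other targets with DCAF11. In both settings the latter included LHX8, which passed the filter on dim features only through a 48 h array. Quantile normalisation left 0 calls among superoxide and hydrogen peroxide enzymes. With the 0.9 quantile 1 member, KEAP1, went past the noise threshold.

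With the replicate number as a block 0 members passed at 48 h (NFE2L2 0.129, adjusted p = 0.0530, and TXNRD1 -0.147, adjusted p = 0.0570), and 0 of the list of other targets with DCAF11, beside 16.5% of all features. Deviations of arrays with the same number correlated at -0.0871, -0.152 and -0.000756 between 0 h and 48 h. They correlated at 0.0617 and -0.0298 between 0 h and 24 h, and at -0.0975 and -0.0324 between 24 h and 48 h. With so few arrays, and the 0 h replicate 1 apart, these values cannot decide whether the numbers pair the arrays. Over all features the block gave 507 calls at 24 h, against 998, and 220 of 48 h minus 24 h, against 368.

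Leaving out 1 replicate at a time gave 0 to 4 called members at 48 h and 0 to 1 at 24 h. The calls of the lists ranged from 2 to 6 for regulators, 5 to 8 for glutathione genes, 1 to 3 for thioredoxins, 0 to 1 for pentose phosphate and NADPH enzymes, 0 to 1 for xenobiotic metabolism, 0 to 2 for heme and iron, 0 to 1 for superoxide and peroxide enzymes, and 0 to 3 for other targets with DCAF11. All features gave 1621 to 3561 calls at 48 h, 122 to 2279 at 24 h, 75 to 1340 of 48 h minus 24 h, and 0 to 26 and 0 to 24 for the early and middle pairs. Array weights gave 2106 calls at 24 h, 1350 of 48 h minus 24 h, and 17 and 8 for these pairs.

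Differences near 0 changed sign, none of them past the threshold. SRXN1 at 48 h gave -0.00659 with array weights, -0.0149 without the 2 arrays, and -0.0149 to 0.0241 over single replicates left out. For 48 h minus 24 h, KEAP1 gave -0.0039 with the block and -0.0157 to 0.0163 over single replicates, and HMOX1 gave 0.00581 after median centring and -0.0890 to 0.00805 over single replicates. TXNRD1 in the early pair gave 0.0137 with array weights, 0.0269 without the 2 arrays, and -0.0450 to 0.0269 over single replicates. The causes were not tested. With 3 arrays or fewer per time, and 1 from 0.5 h to 6 h, the number of arrays limits what can be told apart.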
